A study of Mus musculus with 11 samples.

Results

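The comparison described here is that of OTX2 with SOX2 in mouse epiblast stem cells (EpiSCs) kept without activin. It uses 2 of the 11 libraries of the series, the libraries EpiSCA_OTX2 and EpiSCA_SOX2, and their deposited lists of ChIP-seq peaks. All cells were of the 129/Sv strain and grew without feeders in N2/B27 medium with 10 ng/ml Fgf2. In the EpiSCA groups activin had been withdrawn 18 hr before harvest, and in the EpiSC groups, used here for comparison, it was present throughout. Every cell population had been transiently transfected with a plasmid in which the CAG promoter drives the TF joined to BLRP, a biotin acceptor sequence, together with BirA, so the chromatin was pulled down on streptavidin through an exogenous TF. Each TF was sequenced once in each culture, so there is no replicate error, and the depth of the libraries is unknown because the lists hold no reads. On chromosomes 1 to 19 and X, the OTX2 list holds 113831 peaks (of 114041 deposited) and the SOX2 list 87781 (of 87907). An OTX2 and a SOX2 peak were called shared where they had at least 1 bp in common, which chose 14232 OTX2 peaks and 14643 SOX2 peaks. These joined into 13931 shared sites and left 99599 OTX2 peaks without SOX2 and 73138 SOX2 peaks without OTX2.

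OTX2 is a homeodomain protein of the epiblast and the anterior neural plate, and proteins of its class bind DNA around the sequence GGATTA. SOX2 belongs to the SOX family, whose HMG box recognizes an ACAA core and bends the DNA there. SOX2 is known for acting beside partner TFs, among them the POU factor POU5F1 in pluripotent cells, and both TFs take part in the passage from the epiblast to neural plate.

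The following stretches show the sequence at the sites that carry the results. Each is 200 bases of the plus strand of mm9 centered on the overlap of both peaks, or on the peak midpoint for an unshared peak, with GGATTA (or TAATCC) and the SOX core (ACAA with A or T next and then a purine, on either strand) in capitals. The first is the shared site with the second highest rank by the lower of its 2 scores, in an intron of Mtf2, where the octamer ATGCAAAT, on the minus strand and so printed as atttgcat, lies 2 bases before a SOX core. The next is the site of the highest rank, a tandem repeat without either sequence.
Mtf2 intron, chr5:108505883-108506082: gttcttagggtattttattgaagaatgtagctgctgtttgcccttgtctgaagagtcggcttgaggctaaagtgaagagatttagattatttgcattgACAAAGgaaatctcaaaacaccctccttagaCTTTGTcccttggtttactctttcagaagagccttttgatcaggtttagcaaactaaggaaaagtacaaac
Site of the highest rank, chr17:4626248-4626447: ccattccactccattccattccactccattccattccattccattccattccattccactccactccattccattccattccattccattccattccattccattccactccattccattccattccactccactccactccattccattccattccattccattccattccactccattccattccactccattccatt
The next are shared sites at genes named by the study: an Otx2 intron with 4 SOX cores, a site downstream of Fgf5 with both sequences, a Nes intron and a site upstream of Sall4.
Otx2 intron, chr14:49282721-49282920: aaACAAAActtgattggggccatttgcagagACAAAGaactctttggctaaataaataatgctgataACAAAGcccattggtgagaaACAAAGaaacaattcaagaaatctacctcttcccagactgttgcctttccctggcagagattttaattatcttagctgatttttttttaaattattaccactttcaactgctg
Downstream of Fgf5, chr5:98722384-98722583: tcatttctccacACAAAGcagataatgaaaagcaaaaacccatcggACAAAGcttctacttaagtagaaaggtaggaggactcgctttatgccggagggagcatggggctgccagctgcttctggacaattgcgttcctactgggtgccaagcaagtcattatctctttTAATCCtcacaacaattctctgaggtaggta
Nes intron, chr3:87778347-87778546: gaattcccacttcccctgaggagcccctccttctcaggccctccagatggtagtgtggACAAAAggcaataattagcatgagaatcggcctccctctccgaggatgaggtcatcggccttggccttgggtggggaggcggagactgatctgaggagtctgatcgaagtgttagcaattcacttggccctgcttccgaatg
Upstream of Sall4, chr2:168616568-168616767: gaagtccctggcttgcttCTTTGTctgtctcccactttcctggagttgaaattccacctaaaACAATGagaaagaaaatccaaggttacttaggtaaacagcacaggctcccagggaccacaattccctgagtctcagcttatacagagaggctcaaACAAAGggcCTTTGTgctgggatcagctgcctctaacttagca
The last are the unshared peaks with the highest scores, an OTX2 peak in Ctcf and a SOX2 peak with 6 SOX cores in Cdk14, and a shared site that carries a recurrent sequence (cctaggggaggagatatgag) described further on.
OTX2 without SOX2, Ctcf intron, chr8:108163473-108163672: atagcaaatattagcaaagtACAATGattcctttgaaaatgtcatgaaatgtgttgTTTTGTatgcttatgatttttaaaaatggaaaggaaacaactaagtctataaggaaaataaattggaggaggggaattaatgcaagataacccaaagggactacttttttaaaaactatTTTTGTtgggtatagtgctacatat
SOX2 without OTX2, Cdk14 intron, chr5:5372807-5373006: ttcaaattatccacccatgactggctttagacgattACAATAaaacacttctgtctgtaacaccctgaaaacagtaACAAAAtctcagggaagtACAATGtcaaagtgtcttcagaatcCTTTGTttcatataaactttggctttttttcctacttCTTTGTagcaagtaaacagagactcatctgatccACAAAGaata
Shared site with a recurrent sequence, chr7:96720236-96720435: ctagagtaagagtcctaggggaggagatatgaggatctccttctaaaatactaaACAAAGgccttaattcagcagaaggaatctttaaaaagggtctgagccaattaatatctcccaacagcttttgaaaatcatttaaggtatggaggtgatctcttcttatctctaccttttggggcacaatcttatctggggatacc

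The genes of the TFs themselves were looked at first, because the plasmids carry their coding sequences. At Otx2 (ENSMUSG00000021848.9, chromosome 14, 49277354 to 49287319), 3 OTX2 peaks covered 100% of the 891 coding bases, the highest with a score of 3100. The score is the one MACS gives, -10 times the log10 of its p-value. A SOX2 peak from 49278120 to 49278944 with a score of 152 covered 63.0% of the same bases, so that a shared site lay on the Otx2 coding sequence. POU5F1 and POU3F1 peaks with scores of 122 and 339 lay there as well. At Sox2 (ENSMUSG00000074637.3, chromosome 3, 34548927 to 34551383), a SOX2 peak with a score of 3100 covered 100% of the 957 coding bases, and no OTX2 peak lay on them. A ZIC2 peak with a score of 2762 covered the same 957 bases. By the design given, a plasmid carries 1 TF, so peaks of other TFs on these bases are not explained by their own plasmid. Where those peaks come from, and whether the same source touches other overlaps, was not tested. Plasmid and genomic DNA cannot be told apart at these coding exons, so sites in both genes were left out of the rankings of sites by score. Chromosome 18, with 472 shared sites, was left out of these rankings too, a choice that the plasmid limit at Otx2 and Sox2 does not explain.

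The OTX2 and SOX2 lists overlapped more often than the same lists after rotation. Of the OTX2 peaks, 12.5% (95% Wilson interval 12.3 to 12.7%) were shared, against a mean of 6.51% (SD 0.0950) and a maximum of 6.79% over 1000 rotations of the SOX2 list along each chromosome, a ratio of 1.92. Of the SOX2 peaks, 16.7% (16.4 to 16.9%) were shared, against 8.51% after rotation, a ratio of 1.96. In this two-sided permutation test the adjusted p was 0.002, the smallest that 1000 rotations can give. The intervals cover counting error only, and the test compares 2 lists, not replicate cultures. In the culture with activin, 7.58% of 103109 OTX2 peaks (7.42 to 7.74%) and 12.3% of 63672 SOX2 peaks (12.1 to 12.6%) were shared, and the ratio for OTX2 peaks was 1.79 (adjusted p = 0.002 by the same permutation test). The ratios of the cultures were not compared by a test, and their order was not stable: with placement within 1 Mb segments they were 1.89 without and 1.94 with activin, and among peaks narrower than 1000 bp 1.69 and 1.75. The activin-free lists are the longer ones, and their OTX2 peaks had a median width of 1034 bp against 803 bp with activin.

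On every chromosome the overlap was above that of the rotated lists, with a median ratio of 1.90, a lowest ratio of 1.67 on chromosome 2 and a highest of 2.42 on chromosome X. The share of SOX2 peaks that were shared ran from 9.05% on chromosome X to 22.1% on chromosome 11. The share of OTX2 peaks moved less, from 10.7% on chromosome 8 to 15.0% on chromosome 13. Over 2576 segments of 1 Mb, the numbers of OTX2 and SOX2 peaks were weakly related (Spearman's rho 0.127). OTX2 numbers went with GC content (rho 0.569) and SOX2 numbers against it (rho -0.516), whereas the number of shared sites did neither (rho 0.0638). These correlations are descriptions across segments of the same 2 libraries. With the SOX2 peaks placed at random within their own 1 Mb segment, the ratio was still 1.89.

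Most shared sites were simple. Of the 13931 sites, 13025 (93.5%) consisted of 1 OTX2 peak and 1 SOX2 peak, 609 joined 1 OTX2 peak to several SOX2 peaks, 240 joined several OTX2 peaks to 1 SOX2 peak, and 57 had several of both. In the 14944 overlapping pairs, the median overlap was 587 bp, and in 35.5% of the pairs the SOX2 peak lay wholly within the OTX2 peak. The midpoints of a pair were a median of 355 bp apart (348 to 363 bp), with quartiles at 155 and 645 bp, and 16.8% of pairs had midpoints within 100 bp. Around OTX2 midpoints, the central 100 bp bin held 1257 SOX2 midpoints, 2.72 times (95% exact Poisson interval 2.57 to 2.87) the mean of bins 4000 to 5000 bp away. With activin this ratio was 2.77 (2.58 to 2.97), an interval that contains the activin-free value. From an OTX2 peak without SOX2 the median distance to the nearest SOX2 midpoint was 11346 bp, and from a SOX2 peak without OTX2 to the nearest OTX2 midpoint 9666 bp. These distances are a description, since the rule removed the peaks that overlap.

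**Figure D1:**
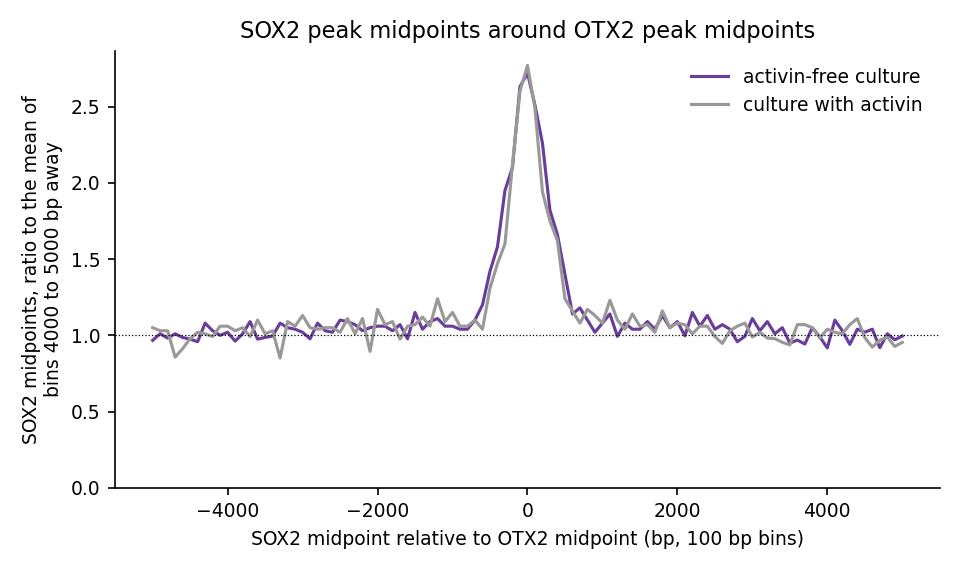
Number of SOX2 peak midpoints in 100 bp bins around OTX2 peak midpoints, as a ratio to the mean bin at distances of 4000 to 5000 bp, in the activin-free culture and with activin. Both curves rise only near the OTX2 midpoint, to 2.72 and 2.77, and are near 1 beyond about 1000 bp.

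Shared peaks had the higher scores in both lists, but for OTX2 no such difference was seen once both lists were limited to narrow peaks. The median OTX2 score was 150 (147 to 153) in shared and 112 (111 to 112) in unshared peaks, and the median SOX2 score was 120 (118 to 122) against 102 (101 to 102). Shared OTX2 peaks were also wider, with a median of 1147 bp against 1021 bp, and shared SOX2 peaks had a median width of 764 bp against 717 bp. With both lists limited to peaks narrower than 1000 bp, the difference of the medians was 0.315 for OTX2 (-1.20 to 1.73) and 7.41 for SOX2 (4.51 to 10.0). Narrow peaks that met only a wide peak of the other TF counted as unshared there. When both peaks had to overlap by 50% of their length, it was 1.81 for OTX2 (-1.41 to 5.26) and 62.0 for SOX2 (57.2 to 65.9). The 1 bp rule does not correct for width: 9.02% of OTX2 peaks of 500 to 1000 bp were shared and 28.7% of those of 2000 bp or more. Whether width accounts for the difference in scores was not tested.

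The lists were next divided into 6 bins of equal size by score. The share of OTX2 peaks with SOX2 rose from 9.17% in bin 1 (scores of 50 to 63.1) to 20.3% in bin 6 (290 or more), and that of SOX2 peaks with OTX2 from 13.5% to 22.8%. Widths rose over the same bins, from a median of 810 to 1859 bp in shared and from 793 to 1569 bp in unshared OTX2 peaks. With both lists limited to peaks narrower than 1000 bp, the median OTX2 scores differed by 0.315, as given above. Within a shared pair, the scores of the 2 TFs were almost unrelated (Spearman's rho 0.0454 over the 13931 sites, with 1 pair from each, a description).

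**Figure D2:**
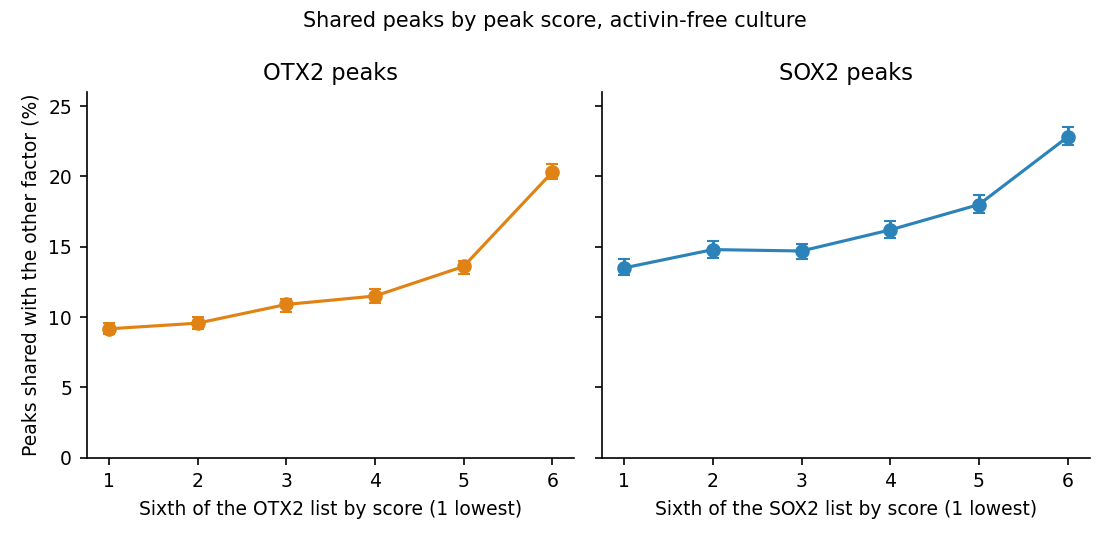
Share of OTX2 peaks (left) and SOX2 peaks (right) that were shared, in 6 bins of equal size by score, with 95% Wilson intervals. The OTX2 share ran from 9.17 to 20.3% and the SOX2 share from 13.5 to 22.8%, with the largest step at the bin of the highest scores; the peaks also widen from bin to bin.

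Each class carried the sequence of its own TF, and this served as a check of the labels. Windows of 100 bp to either side of the midpoint held GGATTA at 22.4% of OTX2 peaks without SOX2 (22.2 to 22.7%) and at 7.79% of SOX2 peaks without OTX2 (7.6 to 7.99%), against 8.56% and 7.80% in windows of the same size 1000 bp away. The SOX core lay at 85.9% of SOX2 peaks without OTX2 (85.6 to 86.1%) and at 50.3% of OTX2 peaks without SOX2 (50 to 50.7%), against 57.0% and 50.7% in the flanking windows. At the middle of shared sites both values lay between those of the unshared classes. GGATTA was found at 12.1% of shared sites (11.6 to 12.6%, flanks 9.01%) and the SOX core at 76.0% (75.3 to 76.7%, flanks 54.7%). Both sequences were present at 9.32% of shared sites and neither at 21.2%. The octamer ATGCAAAT, the sequence of POU factors, lay at 3.52% of shared sites (3.22 to 3.84%), 2.04% of OTX2 peaks without SOX2 and 2.47% of SOX2 peaks without OTX2, with flanks between 1.47 and 1.60%. Mean GC content was 39.9% at shared sites, 41.5% at OTX2 peaks without SOX2 and 38.1% at SOX2 peaks without OTX2.

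Since the middle of an overlap need not be the middle of either peak, the same search was made at the peaks' own midpoints. GGATTA lay at 17.7% of shared OTX2 peaks (17 to 18.3%) and 22.4% of unshared ones. The SOX core lay at 81.6% of shared SOX2 peaks (81 to 82.3%) and 85.9% of unshared ones (85.6 to 86.1%). Shared peaks were thus the poorer in the sequence of their own TF, although they had the higher scores. The same held in each of the 6 score bins: GGATTA ran from 15.5 to 20.1% in shared and from 20.8 to 23.4% in unshared OTX2 peaks, and the SOX core from 80.3 to 83.8% in shared and from 84.6 to 86.9% in unshared SOX2 peaks.

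The sequence of the other TF depended on how close the midpoints were. In pairs with midpoints less than 100 bp apart, the SOX core lay at 78.6% of OTX2 midpoints, and in pairs 500 to 1000 bp apart at 52.3%, close to the 50.3% of OTX2 peaks without SOX2. GGATTA at SOX2 midpoints fell likewise from 15.8 to 6.62%. Some of this follows from the windows themselves, which are largely the same bases when midpoints are close. At the TF's own midpoint the values moved little with distance, between 16.4 and 19.2% for GGATTA and between 79.3 and 82.6% for the SOX core. At the 1299 shared sites with both sequences within 100 bp of the middle, the nearest GGATTA and SOX core were a median of 40.0 bp apart (quartiles 19 and 79 bp). The most frequent spacing was 5 bp, at 39 sites. Spacing was not measured in flanks or at unshared peaks, so no preferred spacing is read from these values.

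**Figure D3:**
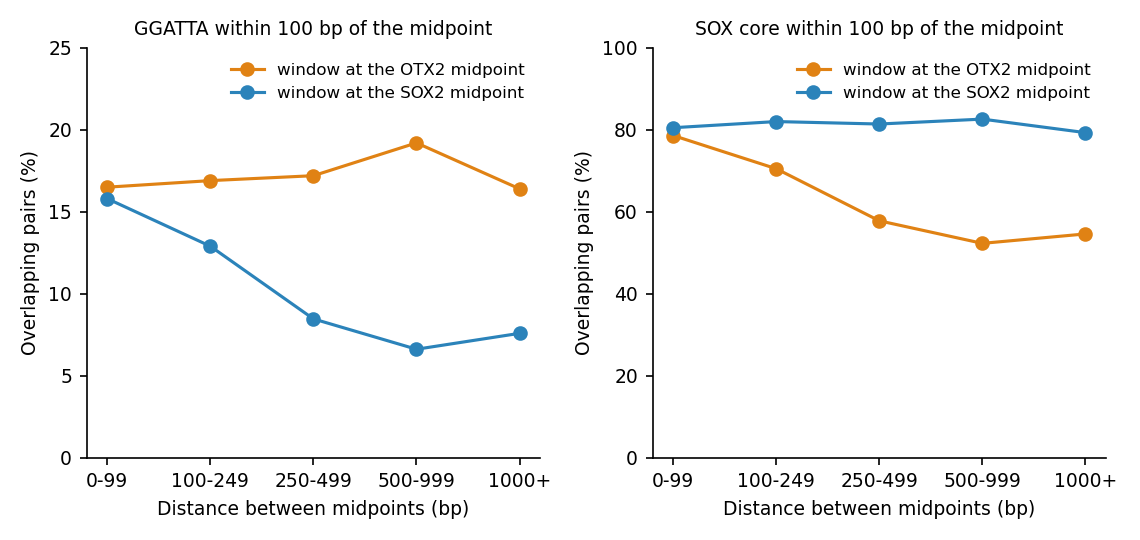
Share of overlapping pairs with GGATTA (left) or the SOX core (right) within 100 bp of the OTX2 midpoint or of the SOX2 midpoint, by the distance between the 2 midpoints. GGATTA at SOX2 midpoints fell from 15.8 to 6.62% and the SOX core at OTX2 midpoints from 78.6 to 52.3% between the closest pairs and those 500 to 1000 bp apart, while the values at the TF's own midpoint stayed level.

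Parts of all 3 classes lay in repeated DNA; this was examined after the other values had been seen. A stretch of 20 bases present in at least 50 of all windows and flanks was found at 18.9% of shared sites (18.3 to 19.6%, flanks 22.6%), 13.2% of OTX2 peaks without SOX2 (12.9 to 13.4%, flanks 21.3%) and 30.5% of SOX2 peaks without OTX2 (30.2 to 30.8%, flanks 30.0%). Some of the recurrent sequences are shown.
Most frequent at shared sites: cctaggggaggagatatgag
Rank 3 at shared sites: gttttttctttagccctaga
Most frequent at OTX2 peaks without SOX2: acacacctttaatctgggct
Rank 2 at SOX2 peaks without OTX2: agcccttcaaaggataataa
The first was at 166 shared sites on all 20 chromosomes, 8 OTX2 peaks without SOX2 and 112 SOX2 peaks without OTX2. Of its 1432 exact copies on these chromosomes of mm9, 35.1% lay in an OTX2 peak, 28.4% in a SOX2 peak and 13.6% in both, and 0% in a ZIC2, POU5F1 or POU3F1 peak. The sequence of rank 3 at shared sites was at 102 of them and had 275 copies, of which 62.9% lay in an OTX2 peak, 53.8% in a SOX2 peak and 46.5% in both. Of the same copies, 6.55% lay in a ZIC2 peak, 1.09% in a POU5F1 peak and 5.09% in a POU3F1 peak. With activin, 37.8% of its copies lay in an OTX2 peak and 5.09% in a SOX2 peak. The most frequent at OTX2 peaks without SOX2 had 4170 copies, 75.4% of them in OTX2 peaks and 0.144% in SOX2 peaks, and the last shown 14172 copies, 0.0847% in OTX2 peaks and 23% in SOX2 peaks. A read that fits many copies cannot be placed for certain, and how such reads were treated is not given in the sources used here. Without peaks whose midpoint window held a repeated stretch, the ratio to rotation was 2.33 for OTX2 peaks and 2.37 for SOX2 peaks. Among the 15298 OTX2 and 25258 SOX2 peaks whose window did hold one, the ratios were 4.73 and 4.72, with 9.28% and 5.72% shared.

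Shared sites lay near transcription start sites (TSSs) about as often as OTX2 peaks without SOX2, and far more often than SOX2 peaks without OTX2. The median distance to the nearest of 86803 annotated TSSs was 18.7 kb for shared sites (17.8 to 19.3 kb), 16.2 kb for OTX2 peaks without SOX2 (16 to 16.4 kb) and 37.5 kb for SOX2 peaks without OTX2 (37.0 to 38.1 kb). Within 50 kb of a TSS lay 71.8% of shared sites (71.1 to 72.6%), 75.4% of OTX2 peaks without SOX2 (75.2 to 75.7%) and 57.0% of SOX2 peaks without OTX2 (56.7 to 57.4%). Shared SOX2 peaks at their own midpoints had a median distance of 18.4 kb. Within 1 kb the shared sites came first, with 8.05% (7.61 to 8.51%) against 6.49% (6.34 to 6.65%) and 3.51% (3.38 to 3.64%). With scores of at least 100 the lead over OTX2 peaks without SOX2 was within counting error, at 7.43% (6.78 to 8.13%) against 7.03% (6.82 to 7.23%).

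OTX2 peaks without SOX2 were few at the TSS itself. At their midpoints the central 100 bp bin held 375 TSSs, 0.673 times (0.606 to 0.744) the bins 4000 to 5000 bp away, and bins 1000 bp to either side held 1.37 times that level. At shared OTX2 peaks the central value was 1.14 (0.902 to 1.42, 79 TSSs), and at shared SOX2 peaks 2.23 (1.89 to 2.61, 154 TSSs), while SOX2 peaks without OTX2 had 1.65 (1.46 to 1.84). By the annotation of protein-coding genes, 45.6% of shared sites lay in introns, 3.33% in exons and 51.0% outside genes. The intron share was 47.6% for OTX2 peaks without SOX2 and 33.9% for SOX2 peaks without OTX2.

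**Figure D4:**
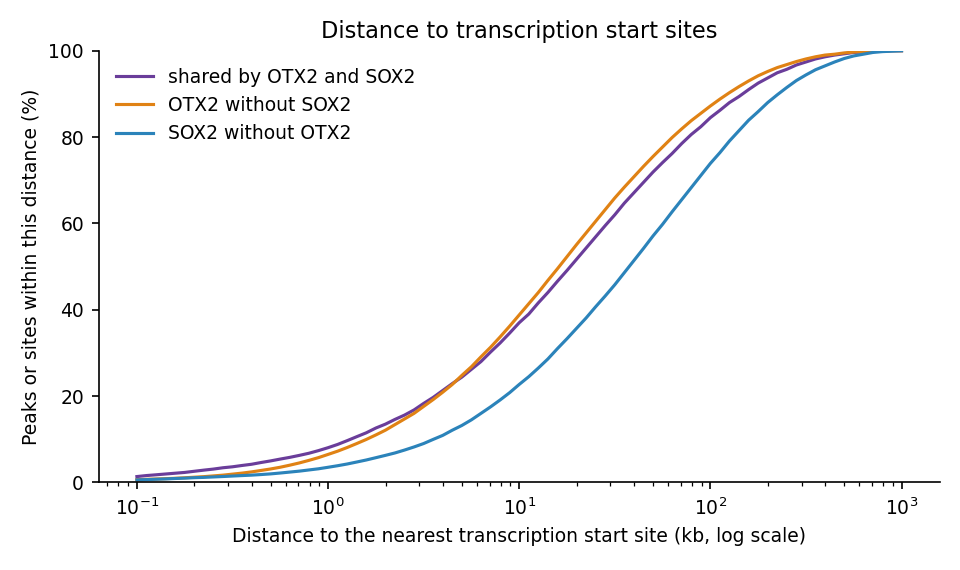
Cumulative share of shared sites, OTX2 peaks without SOX2 and SOX2 peaks without OTX2 within a given distance of the nearest TSS (log axis, kb). At 50 kb the curves stand at 71.8, 75.4 and 57.0%. Against OTX2 peaks without SOX2, shared sites stand higher at 100 bp (1.36 against 0.640%) and lower at 19953 bp (51.7 against 55.1%).

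The other TFs of the series, which played no part in choosing the sites, were listed at shared sites more often than at unshared peaks. POU5F1 and POU3F1 are POU factors of the pluripotent and the primed or neural state, and ZIC2 is a zinc finger protein of the epiblast and neural plate. A POU3F1 peak overlapped 22.7% of shared sites (22 to 23.4%), 15.7% of SOX2 peaks without OTX2 (15.5 to 16%) and 10.1% of OTX2 peaks without SOX2 (9.87 to 10.2%). For POU5F1 these values were 21.5% (20.9 to 22.2%), 14.2% (13.9 to 14.4%) and 10.7% (10.5 to 10.9%). For ZIC2 they were 16.9% (16.3 to 17.5%), 4.74% (4.58 to 4.89%) and 11.5% (11.3 to 11.7%). Shared sites span 2 peaks and are wider, and the level after rotation was higher there as well, so the same counts were made over 200 rotations of each other list. Relative to these, shared sites had 2.02 times the rotated share for POU3F1, 1.69 times for POU5F1 and 1.65 times for ZIC2. OTX2 peaks without SOX2 were near the rotated level for both POU factors (1.04 and 1.01 times) and above it for ZIC2 (1.32 times). SOX2 peaks without OTX2 had 1.78 times the rotated level for POU3F1, 1.52 times for POU5F1 and only 0.673 times for ZIC2. The paper reports alternating Mb-scale domains rich in ZIC2 or in POU3F1 peaks, which rotation along a chromosome does not keep in place. Placement within 1 Mb segments was not made for these lists, so domains and local overlap cannot be told apart in these ratios.

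A count of whether a peak of the other TF covered the midpoint does not use the width of the sites, but it was not set against rotation. The shares were then 15.1% (POU3F1), 12% (POU5F1) and 8.71% (ZIC2) at shared sites, and in each case lower at both unshared classes, from 3.03 to 11.6%. The next counts return to overlap with any base of the site or peak, so they do depend on its width. They were not set against rotation. No peak of the other 3 TFs was found at 56.9% of shared sites (56.0 to 57.7%), 73.9% of OTX2 peaks without SOX2 and 74.5% of SOX2 peaks without OTX2. All 3 were found at 282 shared sites, 2.02% (1.80 to 2.27%), against 0.234% and 0.141% of the unshared classes. Peaks of both POU factors lay at 13.5% of shared sites, 5.21% of OTX2 peaks without SOX2 and 8.57% of SOX2 peaks without OTX2. The octamer and the POU peaks were thus both highest at shared sites.

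**Figure D5:**
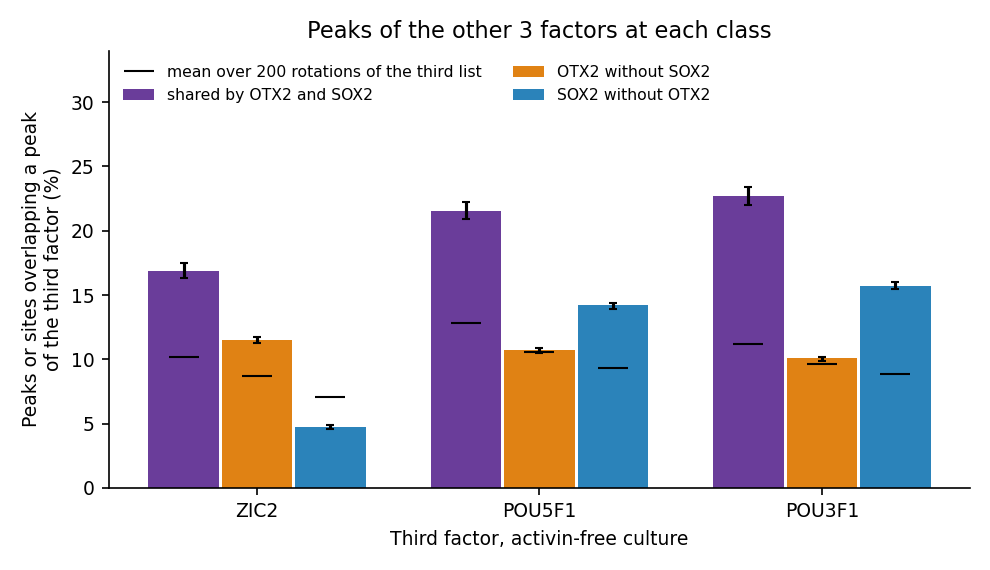
Share of shared sites, OTX2 peaks without SOX2 and SOX2 peaks without OTX2 that overlapped a ZIC2, POU5F1 or POU3F1 peak of the activin-free culture, with 95% Wilson intervals; black lines mark the mean over 200 rotations of that TF's list. Shared sites had the highest share for each TF (16.9, 21.5 and 22.7%), and SOX2 peaks without OTX2 lay below the rotated level for ZIC2.

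The libraries made with activin allowed the sites to be looked up again in data that had not chosen them. An OTX2 peak was listed with activin at 68.4% of shared sites (67.6 to 69.1%) and 67.4% of OTX2 peaks without SOX2 (67.1 to 67.7%). A SOX2 peak was listed at 62.2% of shared sites (61.4 to 63.0%) and 54.9% of SOX2 peaks without OTX2 (54.6 to 55.3%). Shared sites span 2 peaks and so are wider targets than single peaks, and these shares were not set against rotation. Peaks of both TFs were found again at 42.5% of shared sites (41.6 to 43.3%), OTX2 alone at 25.9%, SOX2 alone at 19.8% and neither at 11.9%. At OTX2 peaks without SOX2, a SOX2 peak appeared with activin in 2.19%, and at SOX2 peaks without OTX2 an OTX2 peak in 1.66%. These 2 shares are a description, since the rule chose the unshared peaks for lacking the other TF without activin. Recovery followed the score. When shared sites were divided into 6 bins by the lower of their 2 scores, both TFs were found again at 17% (15.5 to 18.6%) of those in bin 1 (scores up to 58.0) and at 84.8% (83.3 to 86.2%) of those in bin 6 (173 or more). In the other direction, 72.2% of the 7582 sites shared with activin (71.1 to 73.2%) had both peaks without activin. One library stands behind each list, so loss of activin and differences between libraries cannot be told apart.

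The shared sites were ranked by the lower of both scores, and 10 of the 10 first sites had an OTX2 peak with activin as well and 9 a SOX2 peak. In windows of 200 bases GGATTA was at 0 of the 10 and the SOX core at 6, against 12.1% and 76.0% of all shared sites. With 10 sites these shares have little precision. The first, on chromosome 17 in the tandem repeat shown above, had scores of 3059 (OTX2) and 3100 (SOX2), 368 kb from the TSS of Arid1b, a subunit of a chromatin remodelling complex, and carried peaks of all the other TFs. The second, in an intron of Mtf2, a Polycomb-associated protein, had scores of 1345 and 1637 and none of the other TFs, although its window held 1 octamer. Among the others were sites 4.96 kb upstream of Me3 (994 and 1317), in an intron of the nuclear receptor coactivator Ncoa1 (1391 and 962), 3.21 kb upstream of Dcun1d3 (1438 and 954) and 1.57 kb from the TSS of the interferon gene Ifna13 (1027 and 1287). The remaining 4 lay 145 kb or more from the TSS of the nearest protein-coding gene, which was Rpl15-ps2 (1153 and 1631), Gm9376 (1076 and 1335), Nmbr (1308 and 1059) and Pou1f1 (974 and 1106). The highest unshared OTX2 peaks lay in introns of Ctcf (3188), a factor of chromatin insulation, Stk35 (3100) and Map3k7 (3100), and the highest unshared SOX2 peaks in introns of Cdk14 (2587) and Aven (2570) and 6.52 kb from the TSS of the neural SOX gene Sox21 (2244).

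The loci named by the study differed in how the TFs met. Within 50 kb of the Otx2 gene there were 12 OTX2 and 11 SOX2 peaks, and 5 and 6 of them were shared. Besides the site on the coding sequence, a shared site had its middle in the Otx2 intron (744 for OTX2 and 276 for SOX2). Its OTX2 peak, from 49281663 to 49283524, is also one of the 3 that reached coding bases, whereas its SOX2 peak is not on them. The others lay 2.0 kb upstream (498 and 68.0), 33.7 kb upstream (166 and 94.6) and downstream (68.3 and 68.8). The strongest SOX2 peak there, from 49302557 to 49303741 with a score of 437, had no OTX2 peak. Around Sox2 there were 5 peaks of each TF and 0 were shared. Upstream of Sox2 an OTX2 peak from 34544859 to 34546726 (score 528) and a SOX2 peak from 34546996 to 34547893 (score 390) were separated by 269 bp.

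At Fgf5, which encodes a ligand of the primed epiblast, 3 of 10 OTX2 and 3 of 6 SOX2 peaks were shared, all downstream of the gene (the latter 2 nearer to the TSS of 1700007G11Rik), with OTX2 scores of 530, 626 and 866 and SOX2 scores of 139, 174 and 101. At Nes, the gene of the neural intermediate filament nestin, the only SOX2 peak (125) met an OTX2 peak of 176 in an intron. At Pax6, a regulator of eye and forebrain, 2 shared sites lay downstream, 1 with OTX2 above SOX2 (587 and 362) and 1 with SOX2 above OTX2 (728 and 74.9). At Mycn, a MYC family gene, 3 sites were shared, with OTX2 scores of 145, 191 and 1139 and SOX2 scores of 94.5, 190 and 52.6. Sall4, a zinc finger gene of pluripotency, had 3 shared sites, in its introns and 23.2 kb upstream, the strongest with scores of 2188 and 183. Nanog had 1 shared site 35.1 kb downstream (154 and 75.3), and the ligand gene Nodal 1, with scores of 54.8 and 57.2, near the lowest that the lists hold, where only 1 SOX2 peak was listed. The latter site lay 42.5 kb from the TSS of Nodal in an intron of X99384, whose TSS was nearer (8.07 kb). Of the 19 shared sites at these genes, 13 had a ZIC2 peak, against 16.9% of all shared sites. With activin, 16 of the 19 overlapped an OTX2 peak and 9 a SOX2 peak, against 68.4% and 62.2% of all. Both Otx2 sites whose OTX2 peak reached coding bases are among the 19 and among the 16. These genes were named by the study, so the counts are a description. The study showed Fgf5, Pax6, Mycn, Nanog, Nodal and Sall4 as loci with ZIC2 and OTX2 peaks in EpiSCs. The ZIC2 and OTX2 counts are thus not independent of the choice of genes.

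Shared sites were assigned to the protein-coding gene with the nearest TSS within 50 kb. Of 22350 genes, 5275 (23.6%) had at least 1 shared site, 16970 (75.9%) at least 1 OTX2 peak without SOX2 and 11117 (49.7%) at least 1 SOX2 peak without OTX2. The number with a shared site depended on the settings: it was 2555 with scores of at least 100 in both lists and 2119 within 5 kb of the TSS. Among the 5275 genes, 3760 had 1 shared site, 1089 had 2 and 426 had 3 or more, and 204 genes had shared sites but neither kind of unshared peak. In contrast, 5890 genes had both kinds of unshared peak and no shared site. Zfp184, a zinc finger gene, had 8 shared sites, the most of any gene, with OTX2 scores of 99.9 to 1460 and SOX2 scores of 58.3 to 449. Jarid2, a Polycomb cofactor, and the zinc transporter gene Slc39a10 had 7 each. Zcchc7, Pde1c, Arhgap21, Plxdc2, Zfand6, Znrf2 and the cadherin gene Fat1 had 6 each. Otx2 itself was among the genes with 5, which include both sites whose OTX2 peak reached its coding bases. A gene with few neighbours collects more sites under this rule.

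Genes of 12 lists of development and signalling were then counted, 171 of 172 genes being found in the annotation (Sox1 was not matched). Of these, 61 (35.7%) had a shared site, against 23.6% of all genes, and 88.9% had an OTX2 peak without SOX2, against 75.9%. The lists were chosen with earlier results of these data known, and as a whole their genes were richer in both unshared classes too (64.9% against 49.7% for SOX2 without OTX2), so nothing particular to sharing is read from these counts. In the list of shared pluripotency genes, 7 of 13 had a shared site, with 4 sites at Lin28b, an inhibitor of let-7 processing, and 3 each at Sall4, Mycn and L1td1. In the list of anterior neural plate and forebrain genes, 7 of 18 did, with 5 sites at Otx2, 4 at Fezf2, a forebrain repressor, and 3 each at Otx1 and Sp8. The site nearest to Fezf2 lay 0.913 kb from the TSS with scores of 497 and 131. In the neural plate list, 7 of 17 did, with 2 sites each at Sox21, Zic2 and Pou3f2. The 2 sites at Zic2 were its only peaks by this rule, and the nearer, 0.833 kb from the TSS, had scores of 1450 and 721. Zic2 is the gene of another plasmid-borne TF, and how far these peaks cover its coding bases was not checked. In the Wnt list, 10 of 19 did, with 4 sites at the antagonist Dkk1, where the nearest site had scores of 945 and 136, and 2 each at Sp5, a Wnt target, and the receptor gene Fzd7. At Sp5 the nearest site lay 0.0740 kb from the TSS (209 and 133).

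Neural plate border and crest genes had a shared site in 7 of 13 cases, among them Twist1 with 2 and Tfap2a with scores of 1014 and 282. Of the primed epiblast genes 5 of 12 did, among them Foxd3 (382 and 112) and Lefty2 (117 and 73.0), and of the naive pluripotency genes 5 of 15, with 3 sites at Klf5 and 1 at Tfcp2l1 (872 and 53.9). In the FGF list, 6 of 17 did, with 4 sites at Spred1, an inhibitor of the pathway, and 2 at the phosphatase gene Dusp6, 0.243 kb from whose TSS the scores were 98.1 and 198. The shares nearest to or below that of all genes were those of the Nodal and activin list, with 5 of 20 (Acvr2a, Smad2 and Skil with 2 each, the site nearest to Smad2 with scores of 1752 and 130), the midbrain-hindbrain boundary list with 2 of 10 (En1 and Pax8), the primitive streak and endoderm list with 3 of 16 (Gata4, Cer1 and Hhex), and the Notch list with 2 of 15 (Dll1 and Hes1). In these lists too, from 73.3 to 90.0% of genes had an OTX2 peak without SOX2.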

How the data were processed

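The authors used Bowtie2 to place single-end reads of 100 bp on mm9 and MACS1.4 to call peaks against the input control, with default settings except a band width of 150. Versions of Bowtie2 and the treatment of reads with several placements are not given in the sources used here. The deposited value of each peak is a score, -10 times the log10 of the p-value from MACS, with a lowest value of 50. The input, and the EpiSC lists of ZIC2, POU5F1 and POU3F1, were not used here. Peaks outside chromosomes 1 to 19 and X were left out (210 for OTX2 and 126 for SOX2).

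Peaks with at least 1 bp in common were called shared, and connected peaks were joined to sites, placed at the middle of the overlap of the pair with the highest lower score. For the permutation test the SOX2 list was rotated 1000 times along each chromosome, and p-values (two-sided) were adjusted over the 2 cultures by the Benjamini-Hochberg method. Shares have 95% Wilson intervals, medians order-statistic intervals and ratios of counts exact Poisson intervals. Classes within 1 library are not replicates and were not tested against each other. TSSs, genes and sequence came from GENCODE vM1 (95414 transcripts) and the mm9 assembly, and older gene symbols were matched through RefSeq synonyms. Positions count from 1.

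The genes and sites named are Otx2 and Sox2, the loci that the study names, the 10 shared sites ranked highest by the lower score, the 3 unshared peaks of each TF with the highest scores (outside Otx2, Sox2 and chromosome 18), the 10 genes with the most shared sites and up to 4 genes of each list; other list members with 2 or more sites, near a TSS or in lists with few sites were chosen after their values were seen. The comparison and the lists were chosen with earlier results of these data known. One recurrent sequence is not reported here. Overlap steps were tested on simulated data. There were 90 alternatives planned, and those on repeated stretches and on coverage of the midpoint were added after seeing the data. Calculations used Python 3.11.15, numpy 2.4.6, scipy 1.17.1 and matplotlib 3.10.9.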

Additional observations from a re-analysis of the deposited data

How the results depend on the processing

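Depth limits what unshared means here: a peak below the MACS threshold in 1 library counts as absent, and the lists do not show how far below it was. The overlap ratio stayed above 1 under every alternative tried, between 1.69 (peaks narrower than 1000 bp) and 2.69 (reciprocal overlap of 50%) for OTX2 peaks and over the same range for SOX2 peaks, and was 4.73 and 4.72 in the peaks with a repeated stretch alone, with a permutation p of 0.002, or 0.0198 where 100 placements were made, the smallest these can give. No paired analysis was possible because each group has 1 library, so the groups share a single replicate number.

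Levels depended on the settings more than the order of the classes did. The share of OTX2 peaks that were shared was 9.07% with scores of at least 100, 10.4% in the 50000 highest-scoring peaks, 6.88% in peaks narrower than 1000 bp, 5.40% at a reciprocal overlap of 50%, 9.92% with the midpoint inside the other peak and 10.8% without peaks at repeated stretches. For SOX2 peaks the values were 13, 10.7, 5.05, 7.0, 13.3 and 17.4%. The limits on score, rank, width and repeats were applied to both lists. A narrow peak that met only a wide peak of the other TF thus counted as unshared. In the full lists, 9.02% of OTX2 and 16.1% of SOX2 peaks of 500 to 1000 bp were shared. The central midpoint ratio was 3.41 with scores of at least 100. The difference of the median scores was 0.315 and 1.81 for OTX2, and 7.41 and 62.0 for SOX2, in narrow peaks and at a reciprocal overlap of 50%. The cause was not tested.

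With TSSs of protein-coding transcripts only, 58.9% of shared sites, 63.7% of OTX2 peaks without SOX2 and 40.6% of SOX2 peaks without OTX2 lay within 50 kb, and 5.77, 4.12 and 2.30% within 1 kb. With scores of at least 100, 77.5% of OTX2 peaks without SOX2 lay within 50 kb, and 7.43, 7.03 and 2.96% of the classes within 1 kb.

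For the other TFs, in the order shared sites, OTX2 without SOX2 and SOX2 without OTX2, scores of at least 100 gave 13.8, 11 and 3.86% for ZIC2, 19.7, 9.31 and 12.9% for POU5F1 and 21.0, 8.82 and 14.6% for POU3F1. A reciprocal overlap of 50% gave 4.11, 3.07 and 1.57% for ZIC2, 7.70, 3.45 and 4.35% for POU5F1 and 10.1, 4.21 and 3.92% for POU3F1, where the unshared classes changed places. Coverage of the midpoint, added after seeing the data, gave 8.71, 5.05 and 3.03%, 12, 5.41 and 9.32%, and 15.1, 6.91 and 11.6%. With scores of at least 100, OTX2 was found again with activin at 62.7% of shared sites and 62.5% of OTX2 peaks without SOX2, and SOX2 at 55.4% of shared sites and 51.4% of SOX2 peaks without OTX2.

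In windows of 50 bp to either side, GGATTA lay at 5.97, 12.1 and 3.85% of the classes in the same order and the SOX core at 51.7, 29.2 and 62.4%. With scores of at least 100, OTX2 peaks without SOX2 had GGATTA at 21.8% and the SOX core at 51.0%. Without windows with a repeated stretch, GGATTA lay at 20.8% of OTX2 peaks without SOX2 and 6.13% of SOX2 peaks without OTX2, and the SOX core at 74.4, 48.5 and 84.9% of the classes. The number of genes with a shared site was 2119 with sites within 5 kb of the TSS and 2555 with scores of at least 100, against 5275. Of all alternative values, 36 stayed within the interval of the value reported, or on its side of the test, and 73 moved outside it.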

Other observations

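Shared sites were found in 2365 of 2576 segments of 1 Mb, with a median of 5 per segment. The highest number, 40, lay on chromosome 13 between 23000001 and 24000000, where 107 OTX2 and 90 SOX2 peaks were listed. Of these 40 sites, 7 held a repeated stretch of 20 bases. Zfp184, the gene with the most shared sites, lies on the same chromosome from 22036981 to 22052648, and none of its 8 sites held such a stretch.

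Shared sites with the most frequent recurrent sequence (166 sites) had median scores of 89.3 for OTX2 and 65.9 for SOX2, and 22.9% of them had both peaks with activin. Those with the sequence of rank 3 at shared sites (102 sites) had median scores of 727 and 113, and 50% overlapped a ZIC2 peak, 56.9% a POU5F1 peak and 64.7% a POU3F1 peak, while 19.6% had both OTX2 and SOX2 with activin. These overlaps count any base of the whole site, and of the copies of the sequence itself 6.55% lay in a ZIC2 peak, 1.09% in a POU5F1 peak and 5.09% in a POU3F1 peak. Shared sites without any repeated stretch (11293 sites) had median scores of 158 and 124 and both peaks with activin at 44.6%. These groups were chosen after their values were seen, and no test was made.

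The eighth of the highest-ranking shared sites, 152 kb from the TSS of Pou1f1, was a tandem repeat as well. Its peaks, from 65367808 to 65369080 (OTX2, score 974) and from 65367513 to 65369278 (SOX2, score 1106) on chromosome 16, were both listed with activin, and a POU5F1 peak overlapped them.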
